A study of Mus musculus with 17 samples.

Results

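The comparison described here sets the late hours of a growth factor withdrawal course, 540 to 720 min, against its early hours, 120 to 180 min, and asks which early responses were undone by the late hours, which went past their start level and which went on. Adult mouse hippocampal neural precursor cells were cultured as a monolayer on poly-D-lysine and laminin in Neurobasal medium with B27 and GlutaMAX, and bFGF and EGF were taken away to start differentiation. Total RNA was measured on Illumina bead arrays at 17 times, 1 array per time. The 6 arrays of the comparison, of 17 in all, were chosen by time alone: 540, 600 and 720 min (late) and 120, 150 and 180 min (early). The 4 arrays at 0, 15, 30 and 45 min (start) gave the level from which each early response was measured. The labels used here give no strain, sex, number of animals or culture passage, and no age beyond adult. No time was measured more than once. Neighbouring times therefore stood in for replicates, and p-values measure the spread within a window of 1 series. Since no culture kept in bFGF and EGF runs alongside, time in culture and withdrawal cannot be told apart.

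bFGF and EGF bind receptor tyrosine kinases that signal through the ERK and PI3K pathways; ERK raises immediate early genes and its own inhibitors, while PI3K keeps FOXO transcription factors out of the nucleus. The integrated stress response slows protein synthesis while raising translation of Atf4, a transcription factor that induces genes for amino acid supply, redox balance and cell death control. Several of its targets, such as Trib3 and Ppp1r15a, encode proteins that in turn limit the response.

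The arrays differed little in overall scale, with medians between 6.40 and 6.42 on the log2 signal scale, and the lowest correlation between any 2 of the 10 arrays was 0.972. Of 14 neural stem and progenitor markers on the array, 9 lay above the filter on dim probes (a mean log2 signal of 6.41), Nes, Sox2, Vim and Fabp7 among them. All 11 microglia and macrophage markers lay below it, with mean log2 signals over the list of 5.97 to 6.05 late, 5.96 to 6.01 early and 6.00 to 6.14 at the start. In a bulk sample, fewer cells of a type and less RNA per cell cannot be told apart. No detection p-values were given, so a difference between dim signals near background is reported as measured.

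Of 9940 features tested with limma (adjusted p under 0.05), 1885 (19%) were higher late than early and 1762 (17.7%) were lower, 36.7% in all. The late and early arrays did not overlap for 4684 features (47.1%). At least 2-fold differences were fewer, with 178 features higher (1.79%) and 221 lower (2.22%). The early response itself, early against start, held 625 rises (6.29%) and 674 falls (6.78%). Late against start, 2526 features were higher (25.4%) and 2407 lower (24.2%), 49.6% in all. Early rises of at least 2-fold numbered 76 (0.765%) and early falls of that size 82 (0.825%).

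The 1299 early responses were sorted by the 3 contrasts. A response counted as undone where late against early passed the test in the opposite direction and late against start did not pass, as overshooting where late against start passed on the other side, and as partly undone where it passed on the same side as the early response. It counted as extended where late against early passed in the same direction, and as kept where late against early did not pass. Not passing does not show that a kept level stayed the same, nor that an undone one came back in full. Of its early fall, Pou3f3, counted as undone, had 68.8% undone, and Nhsl1, also in that class, had 130%. The contrasts share arrays, so the class counts are a description. Undone responses numbered 197 (15.2% of the 1299 and 1.98% of all features; 95 rises and 102 falls). Overshooting ones numbered 52 (4% and 0.523%; 28 rises and 24 falls) and partly undone ones 57 (4.39% and 0.573%; 19 rises and 38 falls). Together, 306 early responses (23.6%) were reversed to some extent, while 340 (26.2%, and 3.42% of all features) were extended and 653 (50.3%, and 6.57%) were kept. Of the late against early calls, 3001 were of features without an early call (1524 higher and 1477 lower). That is 82.3% of the calls, while 86.9% of all features had no early call. Among the 158 early responses of at least 2-fold, 24 were undone, 42 partly undone, 30 extended and 60 kept. Chac1 and Il17rd were the 2 that overshot.

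**Figure D1:**
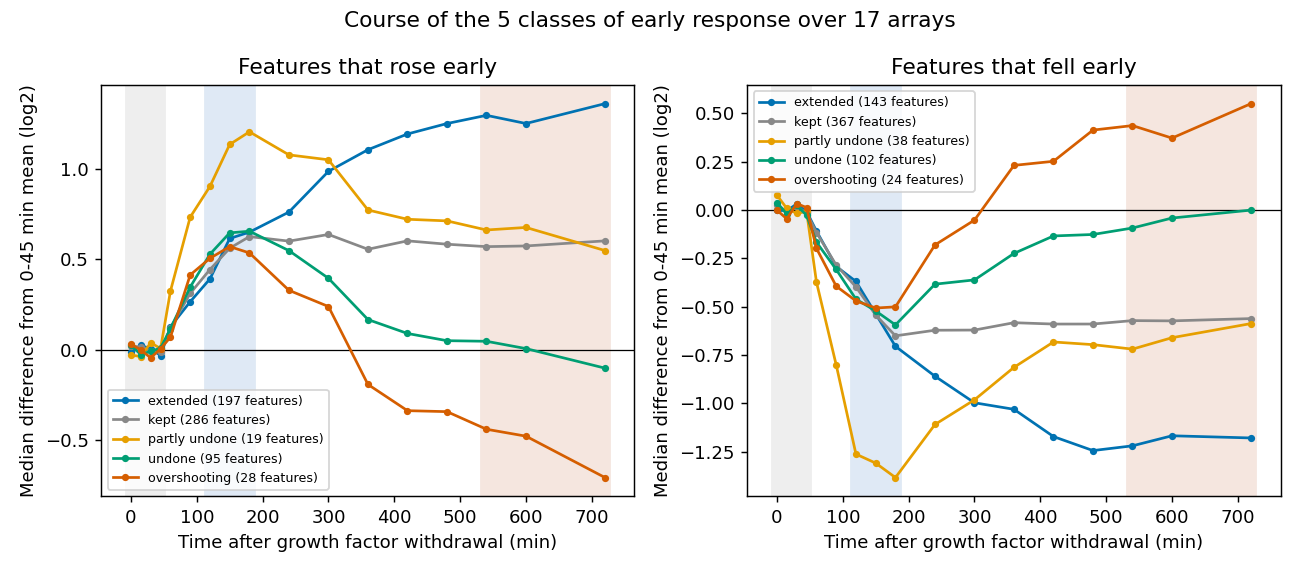
Median log2 deviation from the start level at each of the 17 times, in minutes, for each class of early response, rises and falls apart; shading marks the start, early and late windows. The median of the undone rises lay 0.55 above the start level at 240 min and 0.05 above it at 540 min, and that of the overshooting rises 0.44 below it at 540 min and 0.71 below it at 720 min.

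The undone rises had a median early response of 0.55 and a median late against early difference of -0.60, all on the log2 scale, and the undone falls -0.52 and 0.51. Overshooting genes had early responses of like size, 0.54 for rises and -0.49 for falls, and ended at a median of -0.52 and 0.41 against the start. The partly undone genes had the largest median early responses of these classes, 1.09 for rises and -1.32 for falls, of which medians of 40.8% and 46.8% were undone. Their class required both a called return and a called remaining difference, which by itself favours large early responses. The arrays between 240 and 480 min, which sorted no gene, show when the levels crossed the midpoint between the early and the late window. Of 142 reversed rises, 27 (19%) had passed it at 240 min, 49 (34.5%) at 300 min and 105 (73.9%) at 360 min. Of 164 reversed falls, 48 (29.3%) had passed it at 240 min, 73 (44.5%) at 300 min and 115 (70.1%) at 360 min. At 480 min, 82.4% of the reversed rises and 86% of the reversed falls were past it. Among the arrays from 240 to 480 min, both shares grew most between 300 and 360 min.

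**Figure D2:**
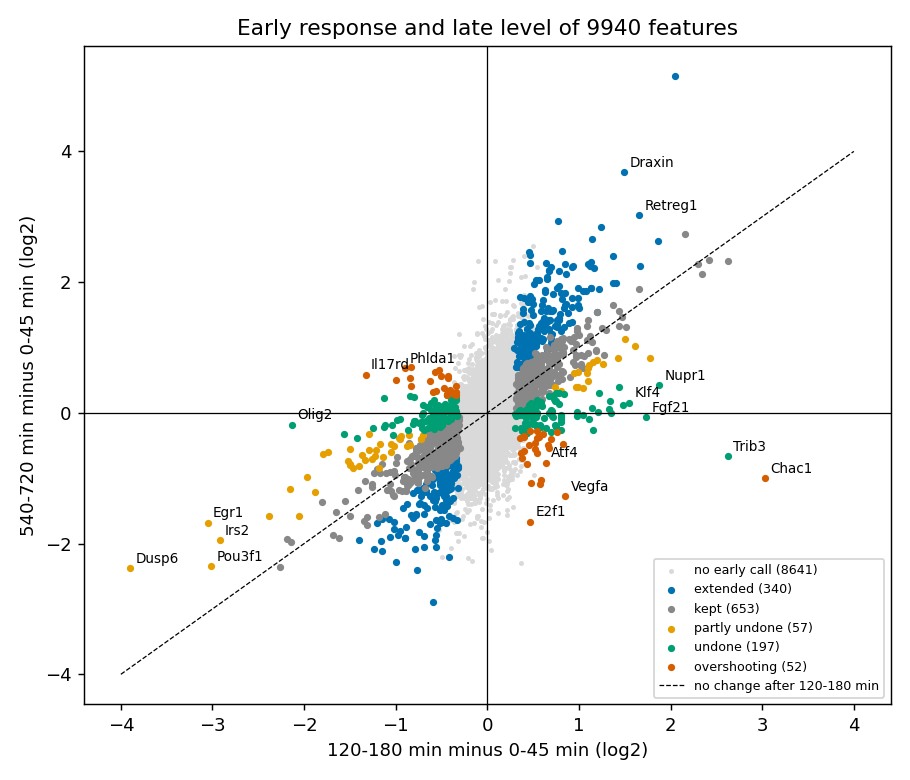
Late minus start log2 difference (y axis) against early minus start log2 difference (x axis) for the 9940 features tested, with the classes of early response in colour, features without an early call in light grey and the dashed line where late and early levels are equal. Both axes share the start arrays; Chac1 lay at 3.03 on the x axis and -0.997 on the y axis, and Olig2 at -2.13 and -0.18.

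Chac1, Trib3 and most other measured genes of the stress response were lower late than early. Of 18 regulators and targets of this response on the array, 17 passed the filter, and 14 of them were lower late than early while none was higher, beside 17.7% and 19% of all features. Their median late against early difference was -1.18, against 0.01 over all features. By class, 8 were undone, 2 overshooting (Atf4 and Chac1), 1 partly undone and 1 kept. Over all features these classes held 1.98%, 0.523%, 0.573% and 6.57%. Leaving out the array at 720 min, or that at 180 min, gave 1 member higher, the ATF-family gene Atf5; 13 were lower without 720 min, and 4 overshot without 540 min. Fgf21, one of the 14, passed the filter on the mean of all arrays through its high arrays alone.

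The 4 genes of the list with the largest late against early difference were early rises that were undone or overshot, as were other members. Only the promoter windows of these 4, chosen on that difference, are shown. They run from 250 bases before the annotated start site over 50 bases from it on (RefSeq, GRCm38.p6), 5′ to 3′ on the gene's strand. Capitals mark matches to TGATGNAA, the core of the composite site that ATF4 shares with C/EBP proteins, here on the opposite strand, as its reverse complement.
Chac1, chr2:119350992-119351291, plus strand, match at -193 to -186 relative to the start site: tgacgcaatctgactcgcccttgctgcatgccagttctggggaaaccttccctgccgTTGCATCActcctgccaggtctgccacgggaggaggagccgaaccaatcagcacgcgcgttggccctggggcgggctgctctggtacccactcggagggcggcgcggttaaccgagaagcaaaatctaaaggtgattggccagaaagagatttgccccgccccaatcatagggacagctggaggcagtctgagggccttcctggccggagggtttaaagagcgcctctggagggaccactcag
Trib3, chr2:152344011-152344310, minus strand, match at 14 to 21: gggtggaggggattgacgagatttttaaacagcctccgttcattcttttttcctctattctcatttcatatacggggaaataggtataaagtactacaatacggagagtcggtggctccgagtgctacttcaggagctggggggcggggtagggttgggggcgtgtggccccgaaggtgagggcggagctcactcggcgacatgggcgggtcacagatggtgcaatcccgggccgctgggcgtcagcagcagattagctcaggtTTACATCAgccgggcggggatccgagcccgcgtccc
Fgf21, chr7:45615441-45615740, minus strand, match at -139 to -132: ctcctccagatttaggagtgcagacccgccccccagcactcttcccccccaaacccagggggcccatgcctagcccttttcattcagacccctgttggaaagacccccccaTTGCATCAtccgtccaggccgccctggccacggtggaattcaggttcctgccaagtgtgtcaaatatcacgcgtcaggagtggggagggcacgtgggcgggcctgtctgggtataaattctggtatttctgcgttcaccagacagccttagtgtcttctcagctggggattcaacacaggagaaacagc
Nupr1, chr7:126625421-126625720, minus strand, match at -110 to -103: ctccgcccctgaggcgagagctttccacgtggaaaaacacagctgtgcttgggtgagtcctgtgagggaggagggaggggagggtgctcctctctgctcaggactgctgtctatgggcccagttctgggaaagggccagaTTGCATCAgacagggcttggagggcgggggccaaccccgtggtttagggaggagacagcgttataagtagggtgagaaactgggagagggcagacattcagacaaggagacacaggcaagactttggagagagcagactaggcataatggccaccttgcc
Both strands were searched. TGATGNAA was found in 8 of 21 windows of the stress regulators on the array (38.1%; 17 of the 18 genes had a window). It was found in 10 of 141 windows of reversed early rises (7.09%), 2 of 170 of reversed early falls (1.18%), 3 of 199 of extended rises (1.51%), 201 of 9411 of all genes above the filter (2.14%) and 1304 of all 32851 windows (3.97%). These sets overlap: Chac1, Trib3, Fgf21 and Nupr1 count both among the 10 and among the 8. Since the stress list was drawn up from regulators and targets of this response, its share is no separate evidence. TGACGTCA, the cAMP response element, cannot match the same letters, and was found in 5 windows of reversed rises (3.55%), 1 of the stress regulators (4.76%), 294 of genes above the filter (3.12%) and 588 of all windows (1.79%). A match is a stretch of letters and no evidence of binding.

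Atf4, the transcription factor at the centre of the response, had log2 signals of 12.34, 12.27 and 11.91 late, against 13.56, 13.67 and 13.50 early and 13.13, 12.63, 13.00 and 12.99 at the start. All late arrays lay below all early and all start arrays. The late level was 2.64-fold below the early one (log2 difference -1.40, SE 0.14, limma adjusted p = 9.36e-07), and 0.76 below the start on the log2 scale (limma adjusted p = 9.58e-05). A modest early rise of 0.64 was thus followed by a fall past the start level. Atf3, the stress-induced factor named with Atf4 in the study's title, was dim: 5.86, 5.97 and 5.85 late, 6.87, 7.04 and 6.70 early, and 5.83, 5.95, 6.17 and 6.13 at the start. It lay below the filter, and in the fit without a filter its early rise of 0.85 was undone, with a late against early difference of -0.98 (SE 0.11, limma adjusted p = 8.12e-06) and a late against start difference of -0.13 (adjusted p = 0.462). Leaving out each late or early array gave differences between -1.07 and -0.90.

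Chac1, whose product breaks down glutathione, moved most of the named genes. Its log2 signals were 8.80, 8.76 and 9.16 late, 12.94, 13.19 and 12.69 early, and 10.61, 9.78, 9.73 and 9.50 at the start. The late level was 16.3-fold below the early one (log2 difference -4.03, SE 0.21, limma adjusted p = 2.05e-09) and every late array lay below every start array, with a late against start difference of -0.997 (adjusted p = 0.000446). With all 17 arrays in the fit it counted as undone. Trib3, a pseudokinase that restrains ATF4, had signals of 8.47, 8.13 and 6.49 late, 10.36, 11.24 and 11.36 early, and 8.64, 7.90, 7.83 and 9.07 at the start. Its fall was 9.77-fold (log2 difference -3.29, SE 0.40, limma adjusted p = 7.63e-06), and the late and start arrays overlapped, the array at 720 min being lowest of all. Without the array at 540 min, or with a slope fitted within windows, Trib3 counted as overshooting.

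Fgf21, a hormone-like growth factor induced by this stress response, was above the filter in the early window only: it had 6.15, 6.17 and 5.95 late, 7.40, 8.39 and 7.87 early, and 6.17, 6.00, 6.22 and 6.24 at the start. Late and start arrays overlapped, all of them below 6.41, so the measured difference of -1.79 is one from a dim signal and the order of its late and start levels is not read. Nupr1, a stress-induced chromatin protein, had 10.91, 10.90 and 9.32 late, 11.30, 11.86 and 12.34 early, and 10.30, 9.71, 9.72 and 10.11 at the start (-1.46, SE 0.32, limma adjusted p = 0.00178). Of its late arrays, 720 min alone was below the start arrays, and without that array Nupr1 counted as partly undone. Jdp2, a partner of the AP-1 and ATF factors, fell by 1.41 after an early rise of 1.15, and Klf4, a zinc finger factor induced by stress and growth arrest, by 1.39 after 1.55. Without the array at 540 min, or that at 30 min, Jdp2 counted as overshooting. Vldlr, a lipoprotein and reelin receptor, was partly undone at -0.59 (limma adjusted p = 0.012), a call lost without the array at 720 min (-0.39) or 150 min (-0.52). Its class held in 12 of 24 settings, and it counted as undone without the array at 540, 600, 180, 30 or 15 min, with an early window of 90 to 180 min, with all 17 arrays or with no filter. Further members of the list, singled out after their values were seen, were undone as well: Ddit3, which encodes the death-linked factor CHOP, differed by -1.36, Sesn2 by -1.15, Herpud1 by -1.19 and Ppp1r15a, which restores translation, by -0.56. Ddit4, an inhibitor of mTORC1, was the kept member, with 11.74, 11.48 and 11.55 late and 11.64, 11.62 and 11.73 early after an early rise of 2.42.

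**Figure D3:**
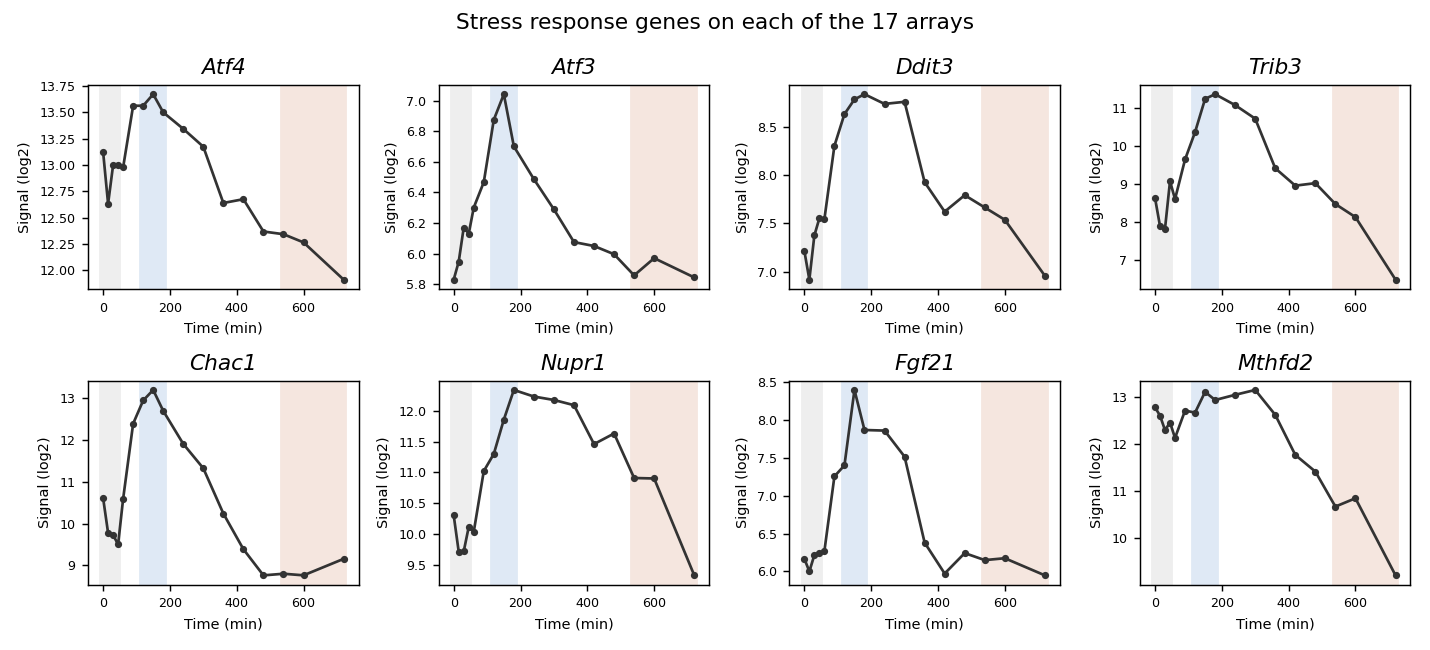
Log2 signal on each of the 17 arrays against time in minutes for 8 genes of the stress response; the start, early and late windows are shaded. Atf4, Atf3, Chac1 and Fgf21 peaked at 150 min, and Mthfd2 stayed high to 300 min and ended at 9.21.

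Mthfd2, Bcat1 and several carriers of amino acids, genes of amino acid supply, were lower late than early. Counts of both lists here are read beside the 17.7% of all features that were lower and the 19% that were higher. Of 12 members of the serine, one-carbon and amino acid synthesis list above the filter (of 15), 7 were lower late than early, 4 without the array at 720 min, and 1 was higher; the median was -0.56. Mthfd2, a mitochondrial folate enzyme, had 10.67, 10.85 and 9.21 late and 12.67, 13.11 and 12.94 early, 6.35-fold lower late (log2 difference -2.67, SE 0.28, limma adjusted p = 1.85e-06). Its early against start difference was 0.37 and its late against start difference -2.30, so no early rise passed the test. Bcat1, which starts the breakdown of branched-chain amino acids, had 9.20, 8.96 and 7.76 late and 10.59, 10.49 and 10.29 early. For both genes the late arrays lay below the early ones, with 720 min the lowest. Gpt2, an alanine transaminase, singled out after its value was seen, was the 1 member that was higher (0.57). Of 7 amino acid transporters above the filter (of 10), 5 were lower, 4 without the array at 720 min, and none higher. The glutamine carrier Slc38a2 (-0.79), the glycine carrier Slc6a9 (-0.96) and the neutral amino acid carrier Slc1a4 (-0.59) were undone early rises. Without the array at 180 min Slc38a2 was the 1 undone transporter, and Slc6a9 had no early call without that at 150 or 30 min either. Slc7a11, the cystine importer, differed by -0.89 (limma adjusted p = 0.00921), and by -0.53 and without a call where the array at 720 min was left out.

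Among targets and inhibitors of ERK signalling, 13 of 19 passed the filter. Of these 6 were higher late than early and 3 lower (Etv4, Ccnd1 and Rhbdf1), beside 19% and 17.7% of all features. The lower members came close to the share over all features, and the median of the list was 0.44. By class, 3 of the 13 were partly undone, 1 undone, 1 overshooting, 3 extended and 4 kept. Over all features these classes held 0.573%, 1.98%, 0.523%, 3.42% and 6.57%. Dusp6, the phosphatase that inactivates ERK, had log2 signals of 10.24, 10.50 and 11.10 late, 8.03, 9.55 and 9.70 early, and 13.65, 13.22, 12.76 and 12.32 at the start. All late arrays lay above the early and below the start arrays. Its early against start difference was -3.90, of which 39% was undone (late against early 1.52, SE 0.36, limma adjusted p = 0.00283). Il17rd, a membrane inhibitor of FGF receptor signalling, went past its start level, with 9.36, 9.17 and 9.34 late, 7.91, 7.28 and 6.96 early, and 8.65, 8.58, 8.81 and 8.80 at the start. Its late level was 3.75-fold above the early one (1.91, SE 0.17, limma adjusted p = 3.73e-07) and 0.58 above the start (adjusted p = 0.00582), and with all 17 arrays in the fit it counted as undone. Other ERK targets fell further: Etv4, an ETS transcription factor, had 6.77, 6.60 and 6.70 late and 8.58, 8.35 and 8.52 early, and Ccnd1, the cyclin that links mitogens to the cell cycle and was singled out after its values were seen, had 11.88, 11.68 and 12.22 late and 13.60, 13.24 and 12.83 early. Their late arrays lay below all early arrays, at differences of -1.79 and -1.30. The early fall of Etv4 had no call without the array at 180, 150, 30 or 45 min or with all 17 arrays.

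Immediate early genes, which cells induce within minutes of a stimulus, came back in part. Of 12 above the filter (of 22), 6 were higher late than early and 1, Klf4, was lower, beside 19% and 17.7% of all features. The median of the list was 0.38, and 4 members were partly undone, 1 undone and 2 kept. Over all features these classes held 0.573%, 1.98% and 6.57%. Egr1, a zinc finger factor driven by ERK, had 11.22, 11.08 and 11.63 late, 8.92, 10.61 and 10.27 early, and 13.26, 13.19, 12.99 and 12.50 at the start, so that 45.1% of its early fall was undone (late against early 1.38, SE 0.30, limma adjusted p = 0.00156). Egr2 (0.71) was partly undone too. Fos, an AP-1 subunit, had no early call and was higher late: 8.63, 8.75 and 9.24 late, 7.41, 7.82 and 8.26 early, and 7.44, 7.78, 8.21 and 8.36 at the start (1.04, SE 0.23, limma adjusted p = 0.00155). Its late arrays lay above all others of the 3 windows. Klf4 ran the other way, with 7.73, 7.61 and 7.77 late, 9.17, 9.11 and 9.01 early, and 7.48, 7.39, 7.55 and 7.78 at the start.

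**Figure D4:**
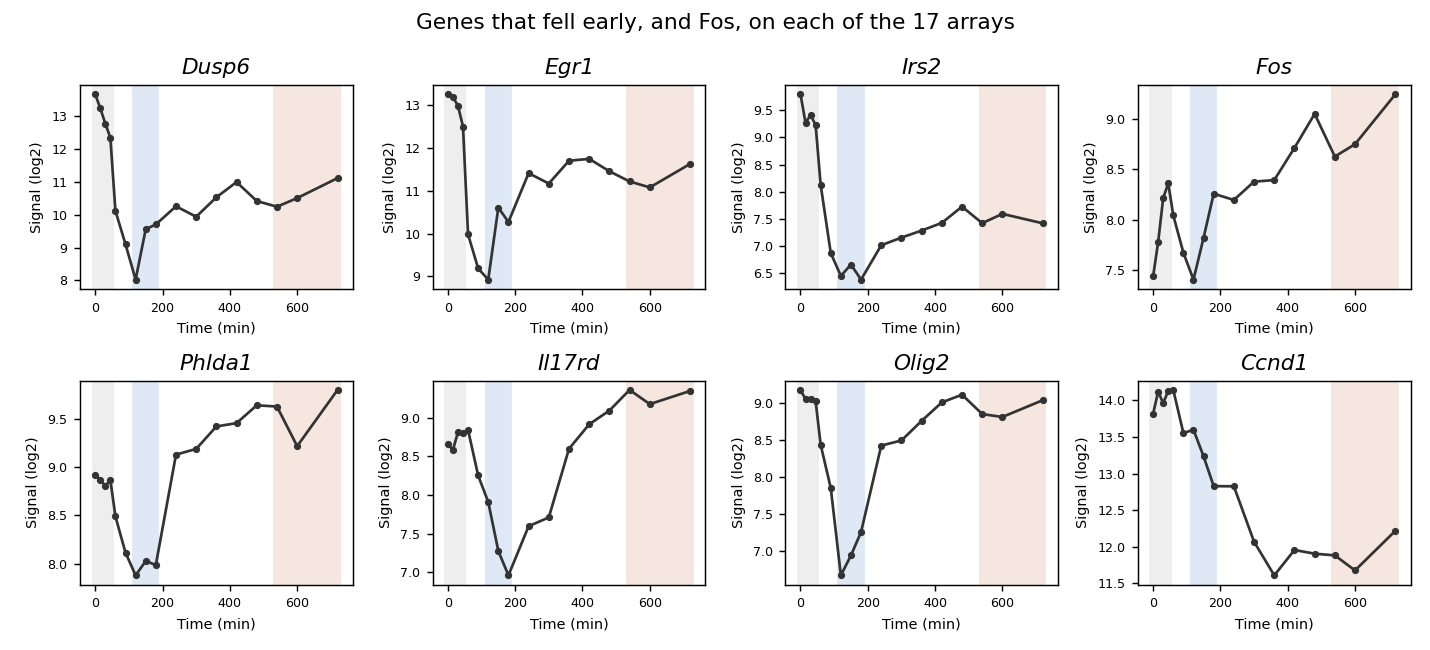
Log2 signal on each of the 17 arrays against time in minutes for 8 genes. Of these, 6 fell early and came back close to the start level, in part or past it. The start, early and late windows are shaded. Olig2 returned close to its start level, Dusp6, Egr1 and Irs2 stayed below it, Phlda1 and Il17rd ended above it, Fos was higher late without an early call, and Ccnd1 went on falling.

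Olig2, the basic helix-loop-helix factor of oligodendrocyte progenitors, was the undone early fall with the largest return. It had 8.85, 8.81 and 9.04 late, 6.66, 6.93 and 7.25 early, and 9.18, 9.05, 9.06 and 9.03 at the start. Its late level was 3.87-fold above the early one (log2 difference 1.95, SE 0.13, limma adjusted p = 2.25e-08), and late and start arrays overlapped (late against start -0.18, adjusted p = 0.248). Other undone falls were those of Axin2, a feedback inhibitor of Wnt signalling (1.35), of Plk2, a polo-like kinase (9.46, 9.81 and 10.00 late, 8.17, 8.88 and 8.49 early), and of Nhsl1 (1.10) and Palmd (1.04). Nhsl1 counted as overshooting without the array at 180 min, and Palmd without that at 540 min. Trib2, a pseudokinase related to Trib3, was partly undone (1.16), as was Rassf3, a RAS association domain protein (0.99). Irs2, the insulin receptor substrate that FOXO factors induce, had 7.42, 7.59 and 7.42 late, 6.45, 6.66 and 6.39 early, and 9.79, 9.27, 9.41 and 9.22 at the start. With 33.5% of its early fall undone, it stayed below every start array.

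Past their start level went Phlda1, Midn, Traf4 and Zfp658 among the early falls. Zfp658, whose early mean was below the filter, counted as undone without the array at 720 min. Phlda1, a pleckstrin homology-like protein that growth factors induce, had 9.63, 9.22 and 9.80 late, 7.88, 8.03 and 7.98 early, and 8.92, 8.87, 8.81 and 8.87 at the start. Late arrays lay above all start arrays, and start arrays above all early ones (late against early 1.59, SE 0.13, limma adjusted p = 1.33e-07). The midnolin gene Midn differed by 1.54 late against early and 0.71 late against start, and the TNF receptor adaptor gene Traf4 by 1.50 and 0.50. Among the early rises, Vegfa, the vascular growth factor, ended lower: 8.84, 8.85 and 8.18 late, 10.67, 10.87 and 10.70 early, and 9.73, 10.07, 9.84 and 9.94 at the start, 4.36-fold lower late than early (limma adjusted p = 4.29e-08). E2f1, the factor that opens S phase, had 8.59, 8.83 and 8.34 late, 10.70, 10.67 and 10.79 early, and 10.19, 10.38, 10.05 and 10.39 at the start. Its early rise was small, 0.47, and had no call without the array at 180 min or that at 30 min, or with all 17 arrays in the fit. The sterol enzyme gene Msmo1 (-1.61) and the homeobox gene Gsc (-1.66) rose early and ended at -1.02 and -1.08 against the start on the log2 scale. Msmo1 had no early call without the array at 180 min or with an early window of 90 to 180 min, and Gsc none without that at 150 min or with all 17 arrays.

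Extended early responses went on in their first direction. Draxin, a secreted axon guidance protein that antagonizes Wnt, had 10.63, 10.94 and 11.14 late, 8.21, 8.71 and 9.23 early, and 7.20, 7.45, 7.45 and 6.77 at the start. The 3 windows did not overlap, and the late level was 4.54-fold above the early one (limma adjusted p = 8.66e-07). Of FOXO targets and insulin feedback genes, 18 of 21 passed the filter. Of these 10 were higher late than early and 1 lower, beside 19% and 17.7% of all features, with a median of 0.57. The lower one was the IGF1 receptor gene Igf1r, and none was lower without the array at 540, 720 or 150 min. By class, 6 of the 18 were extended, 4 kept and 1, Irs2, partly undone, beside 3.42%, 6.57% and 0.573% of all features. Fbxo32, a ubiquitin ligase of muscle wasting, was higher by 1.52, and the cyclin G2 gene Ccng2 by 1.18, both extended early rises. The start mean of Fbxo32, 6.15, lay below the filter, so its early rise is one from a dim signal. The thioredoxin-binding Txnip (1.91) and the PI3K inhibitor Pik3ip1 (1.89) were higher late without an early call. Cdkn1c, the CDK inhibitor p57, was an extended early rise (9.34, 9.59 and 9.33 late, 7.61, 7.88 and 7.99 early), without overlap. Extended falls included those of Ccnd2, a D-type cyclin (-1.64), Lor, a cornified envelope protein (-2.31), Rab26, a vesicle GTPase (-1.48), and Hip1, an endocytic adaptor (-1.38). Rab26 and Hip1 had no early call without the array at 180 min, nor Hip1 without that at 45 min, and Lor, Rab26 and Hip1 had none with all 17 arrays.

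Of the Notch pathway, 12 of 18 members passed the filter, and 7 were kept early responses, beside 6.57% of all features. Late against early, 2 of the 12 were higher and 1 lower, neither share above that of all features (19% and 17.7%). Kept members ran from 5 without the array at 180 min to 8 without that at 720 min. Higher ones ran from 0 without 120 min to 3 without 600 or 180 min. Notch3, a receptor, overshot (-0.93), a class held in 13 of 23 settings. It counted as undone without the array at 720, 600, 30, 45 or 0 min, with all 17 arrays, with a late window of 480 to 720 min or with a start window of 0 to 30 min. The target gene Hes5 was extended at 0.78 (limma adjusted p = 0.0205) with overlapping arrays, and had no call without 720 min (0.71), 120 min (0.47) or 150 min (0.66). Hey1, another target, was the other of 2 that were higher (0.48), and had no call without 120 min (0.34). Of 3 BMP and ID genes above the filter (of 9), Id3 was an undone fall (0.68) and Id2 was higher (0.66), both inhibitors of helix-loop-helix factors; with an early window of 90 to 180 min Id2 had no call (0.42). Of 3 POU factor genes and Gbx2 above the filter (of 4), Pou3f1 (0.67) was partly undone, with 22.3% of its early fall undone. That call was lost with an early window of 90 to 180 min (0.36). Pou3f3, whose early mean of 6.19 lay below the filter, was higher, with no call without the array at 600 min (0.34) or 180 min (0.29). Gbx2 was a kept fall, with an early against start difference of -2.26. Its late against early difference was -0.10 (limma adjusted p = 0.675) and its late against start difference -2.36.

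Genes of the G1/S transition had the largest share of members lower late among the lists, mostly without an early rise. Of 24 above the filter (of 25), 22 were lower late than early and none higher, with a median of -1.16. Among these 22, 18 had no early call. Across all features, 17.7% were lower and 19% higher, beside which the counts of these lists are read. Cdc6, which loads the replicative helicase, differed by -1.86, its partner Cdt1 by -1.78 and cyclin E2 (Ccne2) by -1.67. Sterol and lipid synthesis genes had 13 of 16 lower and none higher, with a median of -1.04; Lss and Cyp51, enzymes of the pathway, differed by -1.72 and -1.71. Lysosome and autophagy genes had 14 of 17 above the filter (of 20) higher and none lower, with a median of 0.60, among them Retreg1, through which autophagy takes up endoplasmic reticulum (1.36), and Wipi1, which binds the forming autophagosome (1.04). The largest rises of named genes included Grasp, a scaffold protein of neurons (9.75, 10.23 and 10.88 late, 7.88, 7.81 and 7.89 early; 5.37-fold), the interferon-induced GTPase gene Gbp2 (2.23) and Myt1, a zinc finger factor of neural differentiation. Myt1 averaged 8.33 late, and its early and start means, 6.19 and 6.33, lay below the filter, so its difference of 2.14 is one from a dim signal. Grm5, a glutamate receptor (-2.09), Srm, which makes spermidine (-2.01), and Ung, a DNA repair glycosylase (-1.97), were among the largest falls.

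**Figure D5:**
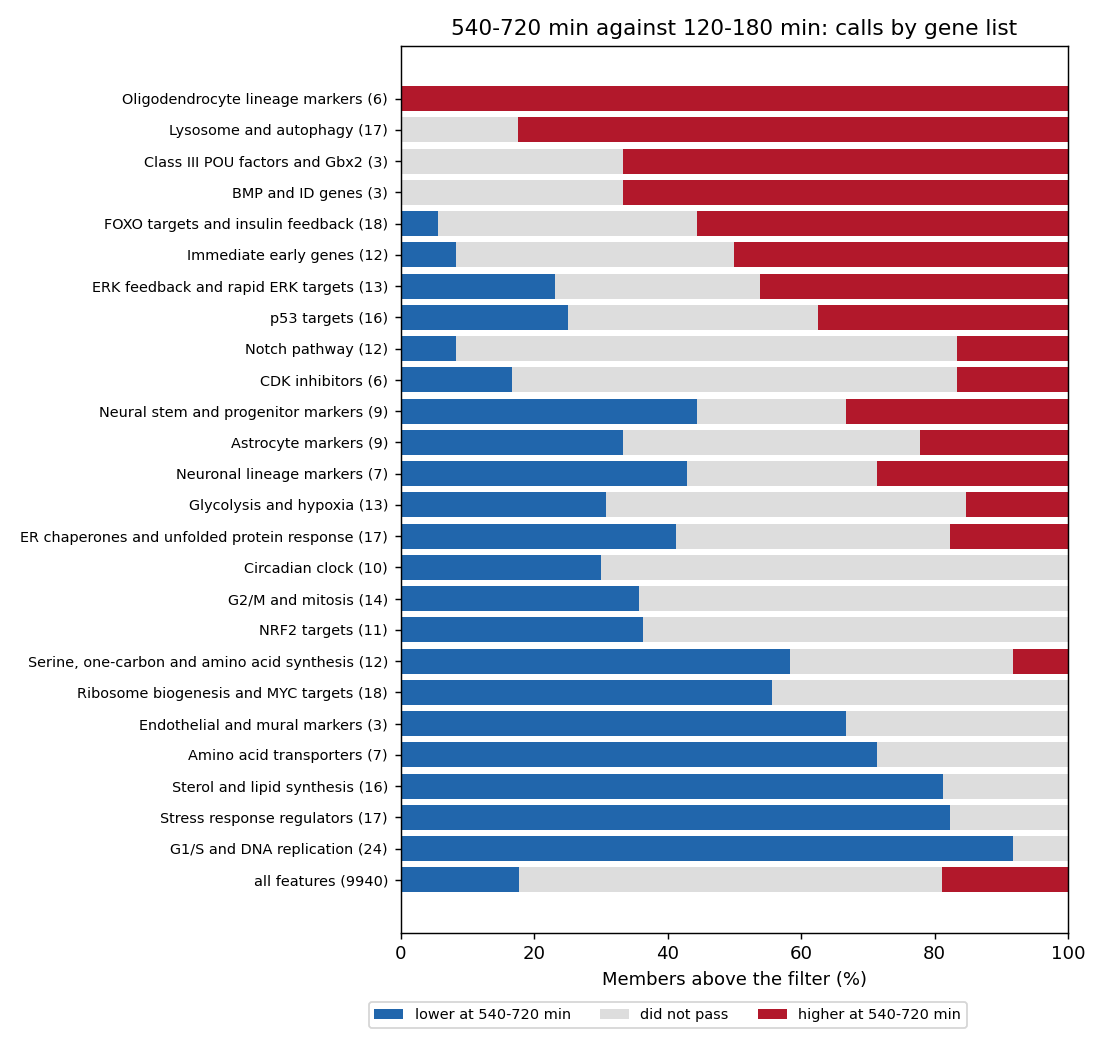
Percent of the members of each gene list above the filter (their number in brackets), and of all features, that were higher late than early, lower late than early or did not pass the test (adjusted p under 0.05). By number, stress response regulators had 0 higher and 14 lower, G1/S genes 0 and 22, lysosome and autophagy genes 14 and 0.

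Of 6 oligodendrocyte lineage markers above the filter (of 12), 6 were higher late than early, beside 19% of all features. The count was 4 without the array at 720 min or that at 180 min, and 5 without that at 600, 120 or 150 min. The 6 were Cnp, a myelin enzyme (2.00), Pdgfra, the progenitors' PDGF receptor (0.73), Olig1, Olig2, Cspg4 and Mbp, the myelin basic protein. The rise of Olig2 was the return of its early fall. Mbp averaged 7.24 late, and its early and start means, 6.22 and 5.97, lay below the filter, which it passed through its later arrays. The mean log2 signal over the 12 was 7.63 to 7.75 late, 7.02 to 7.19 early and 7.19 to 7.21 at the start, the other 6 being below the filter. Counts in the other lineage lists are read beside the 19% of all features that were higher and the 17.7% that were lower. Of 9 astrocyte markers above the filter (of 12), 2 were higher, S100b (1.68) and Gfap (1.06), and 3 lower, the glutamine synthetase gene Glul (-0.73) among them. Of 9 stem and progenitor markers, 3 were higher, Hopx (0.85) among them, and 4 lower, among them Tnc, a matrix glycoprotein (-1.26), and Nes, an intermediate filament (-0.79). Of 7 neuronal markers above the filter (of 21), 2 were higher (Sox4, 0.62, and Map2) and 3 lower (Calb2, -0.98, Sox11 and Dlx1). Of 3 endothelial and mural markers above the filter (of 12), Flt1 (-0.96) and Acta2 fell. Their list's mean log2 signal was 6.23 to 6.32 late, 6.40 to 6.44 early and 6.39 to 6.48 at the start. The part of these cell types in the results above was not tested.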

How the data were processed

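Biotin-labelled total RNA from 17 samples was hybridised to Illumina bead arrays, per the labels. The deposited table holds the authors' log2 signals, 19949 probes on 17 arrays, already on a near-common distribution (values between 5.14 and 15.475). The scale was read from the values. Background correction and normalization were not given in the sources used here. Values were used as deposited. Of the probes, 18351 had 1 gene symbol, 1598 none and 0 several. Symbols were updated through gene identifiers (16482) or accessions (956) and otherwise kept (913). The probe with the highest mean over 17 arrays stood for each of the 95 genes with more than 1. Of 19854 features, 9940 with a mean of at least 6.41, the median over probes, were tested.

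Window means of 10 arrays were fitted with limma 3.58.1 (lmFit and eBayes) in R 4.3.3, with Benjamini-Hochberg adjustment over the 9940 features and a threshold of 0.05. The script was tested on simulated data. Numbers of arrays, not read depth, limit the precision.

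The comparison, the 26 gene lists and the genes to name were chosen with earlier results of these data known. Named were Atf3, Atf4, the 10 largest rises and the 10 largest falls of late against early with arrays that do not overlap, the 5 largest rises and falls in each class of reversed or extended response, and up to 4 genes of each list with the largest late against early difference. Genes with placeholder symbols were not named. Others named in the text or plotted (Ddit3, Sesn2, Herpud1, Ppp1r15a, Ddit4, Gpt2, Ccnd1, Sox2, Vim, Fabp7, Olig1, Cspg4, Map2, Dlx1, Rhbdf1, Atf5, Igf1r) were chosen after their values were seen. Promoter windows came from RefSeq. Alternatives varied the filter, the probe rule, quantile normalization, median centring, limma's trend and array weights, a slope within windows, the window limits, all 17 arrays or 6 arrays in the fit, and the arrays left out.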

Additional observations from a re-analysis of the deposited data

Results flagged for a closer look

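In 132 genes tested over the 4 arrays at 0 to 45 min, 4 had 1 array far from the other 3 by Dixon's ratio, where chance gives about 1 in 20. These arrays are serial times, so a stray array and a change in time cannot be told apart by this ratio. Grasp had a log2 signal of 7.84 at 45 min, the other arrays lying at 8.01, and 7.84 at 60 min as well. Jdp2 had 7.96 at 30 min, the others lying between 8.29 and 8.32. Id2 had 9.57 at 45 min, the others lying between 8.91 and 8.97. It went on to 9.66 at 60 min and 10.20 at 90 min, its highest value, in arrays outside the 3 windows. Cdkn2a had 9.53 at 0 min, the others lying between 9.78 and 9.79. The late and early windows, with 3 arrays each, were not tested in this way.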

How the results depend on the processing

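No paired analysis was possible because the labels give no replicate numbers and no time was measured more than once. Across 23 settings, the late against early differences of 131 named genes gave 2917 values with the same call, 35 that lost the call and 9 that gained it. With a call in either fit, 0 changed direction. A change of sign without a call in either fit was counted as the same. A filter at the 75th percentile of probe means, which tests fewer features, gave 1992 late against early calls, 610 early responses, 2593 late against start calls, and 86 undone, 26 overshooting, 28 partly undone and 176 extended responses. Requiring a 2-fold early response gave 24 undone, 2 overshooting and 30 extended responses. Choosing early responses on the arrays at 90 and 240 min, which the other contrasts do not use, against the same start arrays gave 304 responses. Of these, 34 were undone, 7 overshot, 47 were partly undone and 82 were extended. The start arrays also enter the late against start contrast, so this choice is not independent of the classes. With all 17 arrays in the fit 27 overshot, and with an early window of 90 to 180 min 36 were partly undone; the cause was not tested. Leaving out 1 array at a time, late against early calls ran from 3021 to 3667, early responses from 773 to 1443, late against start calls from 4295 to 4927, undone responses from 127 to 203, overshooting ones from 36 to 54, partly undone ones from 42 to 75 and extended ones from 182 to 338. For early responses and the undone and extended classes, the array at 180 min moved the counts most: without it 773 early responses, 127 undone and 182 extended ones were left, and without that at 150 min 214 were extended. Probes near background limit what can be said of dim genes such as Atf3 and Fgf21.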

Other observations

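Counts of other gene lists between the late and the early window are given here beside the 19% of all features that were higher and the 17.7% that were lower. Of 18 ribosome biogenesis genes above the filter (of 22), 10 were lower and none higher, with a median of -0.50. Rrp9, which binds the U3 RNA, differed by -1.35, Ncl, nucleolin, by -1.11 and Bop1, a factor of the large subunit, by -1.06, while 4 members were extended early falls, 2 without the array at 120, 150 or 180 min. Of 14 G2/M genes (of 18), 5 were lower, with a median of -0.39. Without the array at 720 min 2 were lower and 1 higher, and without that at 180 min 3 were lower. Aurkb, a mitotic kinase, differed by -0.96. Of 6 CDK inhibitors, 1 was higher (Cdkn1c) and 1 lower (Cdkn1a, p21, -0.64), shares near those of all features. Without the array at 720 min 2 were higher, and Cdkn1a had no call without that at 150 min (-0.53). Of 16 p53 targets (of 18), 6 were higher, with Plk2, Sesn1 (1.11) and Bbc3 (0.68) leading, and 4 were lower, 2 without the array at 720 min and 1 without that at 150 min.

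Of 17 endoplasmic reticulum chaperone and unfolded protein response genes (of 19), 7 were lower and 3 higher, 4 being lower without the array at 720 min. Creld2 differed by -0.94 and Dnajb9, an ERdj4 co-chaperone, by 0.57. Of 11 NRF2 targets, 4 were lower, 0 without the array at 720 min and 2 without that at 150 min; Hmox1, heme oxygenase, differed by -0.59, and by -0.39 and without a call where 720 min was left out. Of 13 glycolysis and hypoxia genes (of 17), 2 were higher, Adm, adrenomedullin, among them, whose early mean was below the filter, and 4 lower, with Ldha, lactate dehydrogenase A, at -1.01. Of 10 clock genes (of 15), 3 were lower, Bhlhe40 (-0.74), Per2 (-0.72) and Ciart (-0.62), and none higher; without the array at 540 min, or that at 120 min, 1 was higher.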
